A study of Gossypium hirsutum with 6 samples.

Results

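Among 156846 transcripts assembled from the stem apexes of 3 upland cotton lines, 97 had RPKM values that followed the height of the plants, 44 of them in the same order as height and 53 in the reverse order. RPKM is a read number scaled to the length of the transcript and the size of the library. Members were chosen by these RPKM values: a transcript was counted when it averaged 5 RPKM or more over the 3 libraries and when both steps, from the dwarf mutant to the wild type and from the wild type to the tall mutant, were at least 1.4-fold in the same direction, with a value of 0 set to 0.1. Of the 31427 transcripts that reached the mean of 5 RPKM, the 44 rising ones made up 0.14% and the 53 falling ones 0.169%. The words rising and falling name the order across the lines here, and stand for no test. Because the rule used the values of all 3 libraries, the sizes of the steps describe the chosen transcripts and support nothing beyond them.

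The lines were A3 (Ari3697), a mutant with a tall culm, A1 (Ari1327), a dwarf mutant, and A9 (Ari971), the wild type from which both mutants had been raised by gamma irradiation. All were greenhouse plants sampled at the fifth true leaf stage, when the stem apex, with its meristem, leaf primordia and youngest internodes, was taken. Each line had 1 mRNA library, so no difference below has a replicate check and no p-value can be given. The number of plants behind each library was not given in the sources used here, and the preparation notes mention pooling of RNA although the labels give each library a single line.

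Plant height in cotton depends on how many internodes the shoot apex lays down and how far their cells divide and elongate. Gibberellins, brassinosteroids and auxin promote this elongation, and cellulose synthases and microtubules build the walls and guide their growth. Upland cotton is an allotetraploid, so most genes are present as near-identical copies from its A and D subgenomes. The reads had been assembled without a genome into transcripts, grouped into components of sequences that the assembler joined. Transcripts of the same component can be splice forms, alleles or such copies, and reads can be split between them, so each value within a larger component is uncertain.

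No source used here pairs any of the 97 transcripts with a gene name, a function or a sequence, so they are called by their assembly names and no sequence is shown. For the same reason the stem apex label could not be checked against marker genes of this tissue. In whole tissue, fewer cells of a type and less RNA per cell cannot be told apart.

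The libraries were close in overall scale. RPKM summed to 798674 in A3 and 805778 in A1, against 800227 in A9. Over the 31427 transcripts the median log2 ratio was -0.0025 for A3 over A9 and -0.02 for A1 over A9, so the middle of the distribution was hardly shifted in either mutant. Matching RPKM steps to listed transcript lengths gave about 13568500 reads in A3 and 13860000 in A1, against 15060200 in A9, if the smallest step is 1 read.

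Each step on its own was common. A3 was at least 1.4-fold higher than A9 in 3331 transcripts (10.6%) and at least 1.4-fold lower in 2619 (8.33%). A1 was at least 1.4-fold lower than A9 in 3680 transcripts (11.7%) and at least 1.4-fold higher in 4322 (13.8%). The mutants were compared with the same A9 library, so these counts share its error, and a high or low A9 value moves both ratios the same way while the height order needs them to move apart.

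When both steps were 1.4-fold or more, the 3 lines could stand in 6 orders, and the height orders were the least frequent of them. Of 1039 transcripts with such steps, 669 (64.4%) were highest in A1 and lowest in A9, with A3 between. A further 133 (12.8%) had the opposite order, 75 (7.22%) stood as A9 over A1 over A3, and 65 (6.26%) as A3 over A1 over A9. The falling order held 5.1% and the rising order 4.23%. Thus in most transcripts with large steps the wild type was at one end and both mutants lay on the same side of it. Summing RPKM over the transcripts of each component left the ranking similar, with 43 falling (5.86%) and 38 rising (5.18%) among 734 component sums. These sums were 0.198% and 0.175% of the 21676 components with a summed mean of 5 RPKM or more.

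**Figure D1:**
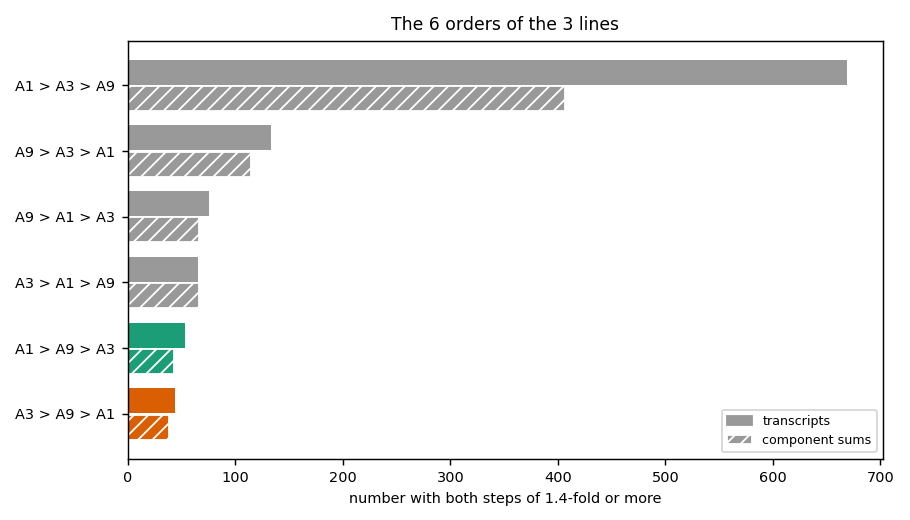
Number of transcripts (plain bars) and of component sums (hatched bars) in each order of the 3 lines, with both steps of 1.4-fold or more and a mean of 5 RPKM or more. The rising order (orange, 44 transcripts and 38 sums) and the falling order (green, 53 and 43) are the shortest bars, and the order A1 over A3 over A9 is the longest with 669 and 407.

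Comparing the mutants directly shows how often A9 lay between them. A difference as large as 2 steps of 1.4-fold together, with A3 higher than A1, was found in 321 transcripts (1.02%), and A9 lay between the mutants in 197 of these, of which 44 had both steps. A difference of the same size with A3 lower than A1 was found in 569 transcripts (1.81%), with A9 between them in 193, of which 53 had both steps. Where the mutants differed by 8-fold or more, A9 lay between them in 29 of 46 transcripts higher in A3 and in 23 of 30 transcripts lower in A3. Of those, 11 and 14 were among the 97. Without any minimum step, 4012 transcripts (12.8%) stood as A3 over A9 over A1 and 3337 (10.6%) as A1 over A9 over A3.

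**Figure D2:**
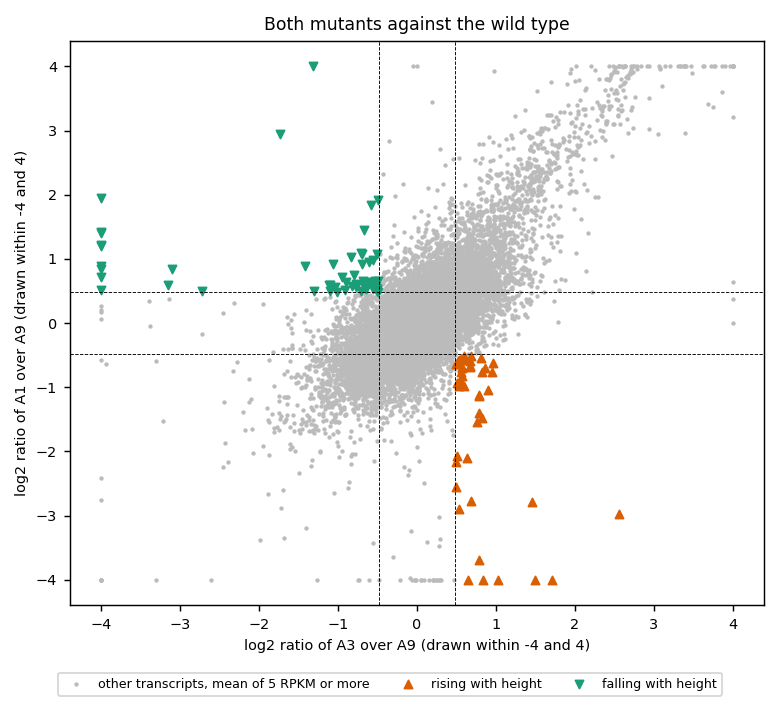
Log2 ratio of A3 over A9 (horizontal axis) and of A1 over A9 (vertical axis) for every transcript with a mean of 5 RPKM or more, with values beyond 4 drawn at the edge and dashed lines at 1.4-fold. Both axes hold the same A9 library. The 44 rising transcripts (orange) lie in the lower right corner and the 53 falling ones (green) in the upper left.

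The rising transcripts were mostly of low abundance and were set apart more by a low dwarf value than by a high tall value. Their RPKM ran from 7.30 to 39.9 in A3 (median 10.2) and from 0 to 14.8 in A1 (median 2.99), against 2.21 to 28.2 in A9 (median 6.20). The median log2 ratio was 0.67 for A3 over A9 and -0.95 for A1 over A9. As folds, these are medians of 1.59-fold higher in A3 and 1.94-fold lower in A1. The step between A1 and A9 was the larger one in 34 of the 44, and the step between A3 and A9 in 10. Only 5 had both steps at 2-fold or more.

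By abundance, 38 of the 44 averaged between 5 and 10 RPKM, 5 between 10 and 20, and 1 more than 20. Over all 31427 transcripts 52.0% were in the lowest of these classes and 6.03% averaged 50 RPKM or more, a mean that no rising or falling transcript reached. The most abundant rising transcript was comp20031_c0_seq1, with 39.9 RPKM in A3 and 14.8 in A1, against 28.2 in A9. Its only partner, comp20031_c0_seq2, stood in the same order with 37.8 in A3 and 18.2 in A1, against 30.6 in A9.

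The widest rising spreads came from transcripts that were nearly missing in the dwarf. In 6 of the 44, A1 was below 0.5 RPKM while A3 and A9 were at 1 RPKM or more. The most abundant was comp15312_c0_seq1, with 27.1 RPKM in A3, listed at 0 in A1, and 17.3 in A9. Its partner comp15312_c0_seq2 was present in all lines, with 18.4 in A3 and 12.3 in A1, against 12.0 in A9. So the missing value in A1 belonged to 1 of the 2 assembled forms, and the sum of both still stood in the height order.

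In other components both forms were low in the dwarf. The transcript comp16311_c0_seq2 had 14.3 RPKM in A3 and 0.23 in A1, against 5.07 in A9, and its partner comp16311_c0_seq1 had 9.57 in A3 and 0.32 in A1, against 4.17 in A9. Likewise comp33058_c0_seq1 had 13.0 in A3 and 0.28 in A1, against 2.21 in A9. Its partner comp33058_c0_seq2 had 11.8 in A3 and 0.46 in A1, against 1.27 in A9. This pair was the clearest case with a large tall-side step, since A3 was 5.87-fold above A9 in comp33058_c0_seq1.

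The other near-missing rising transcripts were comp65985_c0_seq1, comp53691_c0_seq1 and comp37658_c0_seq4. The first had 13.8 RPKM in A3 and 0.16 in A1, against 4.22 in A9. For comp53691_c0_seq1 the values were 19.7 in A3 and 0.31 in A1, against 9.67 in A9. The last, comp37658_c0_seq4, had 14.3 in A3 and 0.41 in A1, against 8.04 in A9, and belongs to a component of 5 transcripts. Near-absence in the dwarf was not limited to the height order. Among all transcripts 29 (0.0923%) were below 0.5 RPKM in A1 and at 1 RPKM or more in A3 and A9, and A3 was at least 1.4-fold above A9 in 6 of them, at least 1.4-fold below in 6 and within 1.4-fold in 17.

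Just above that level in the dwarf, comp30040_c0_seq1, alone in its component, had 11.6 RPKM in A3 and 0.52 in A1, against 6.74 in A9. In 36 of the 44 rising transcripts every line was at 1 RPKM or more. The largest difference between the mutants among these 36 was in comp15455_c0_seq1, with 21.6 RPKM in A3 and 1.14 in A1, against 7.86 in A9, a step of 2.75-fold above A9 and of 6.89-fold below it. Next came comp14572_c0_seq1, with 18.5 in A3 and 1.69 in A1, against 11.5 in A9. Both are the only transcript of their component. In comp14572_c0_seq1 most of the spread lay on the dwarf side, as in most of the group. The same held for comp25730_c0_seq1, alone in its component, with 8.72 in A3 and 1.31 in A1, against 5.61 in A9.

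Some rising transcripts also had a clear step on the tall side. The 2 transcripts of comp54156_c0 had 10.9 and 10.4 RPKM in A3 and 2.37 and 2.11 in A1, against 6.28 and 6.12 in A9, so that both members of this component were rising by nearly the same amount. The sole transcript comp17111_c0_seq1 had 8.91 in A3 and 2.32 in A1, against 4.79 in A9. For comp29055_c0_seq1, also alone in its component, A3 had 9.57 and A1 2.53, against 5.54 in A9. In comp46570_c0_seq15, from a component of 19 transcripts, A3 had 10.04 and A1 2.03, against 5.67 in A9. In these the dwarf step was the larger, but neither step carried the difference alone. Equal steps occurred among the narrower spreads, as in comp25701_c0_seq1, picked after its values were seen, with 7.75 in A3 and 3.09 in A1, against 4.89 in A9, a factor of 1.58 on each side.

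The falling transcripts mirrored this, with the low value in the tall mutant. Their RPKM ran from 0 to 22.2 in A3 (median 3.41) and from 7.08 to 66.3 in A1 (median 12.9), against 0.25 to 31.6 in A9 (median 7.50). The median log2 ratio was -0.82 for A3 over A9 and 0.65 for A1 over A9, or 1.77-fold lower in A3 and 1.57-fold higher in A1. The step between A3 and A9 was the larger in 35 of the 53 and the step between A1 and A9 in 18. In both groups, therefore, the larger step was more often the one down to the lowest line. The rule sets a minimum for the mean and none for the lowest value, so this describes the chosen transcripts only. Falling transcripts averaged between 5 and 10 RPKM in 40 cases, between 10 and 20 in 9 and above 20 in 4.

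**Figure D3:**
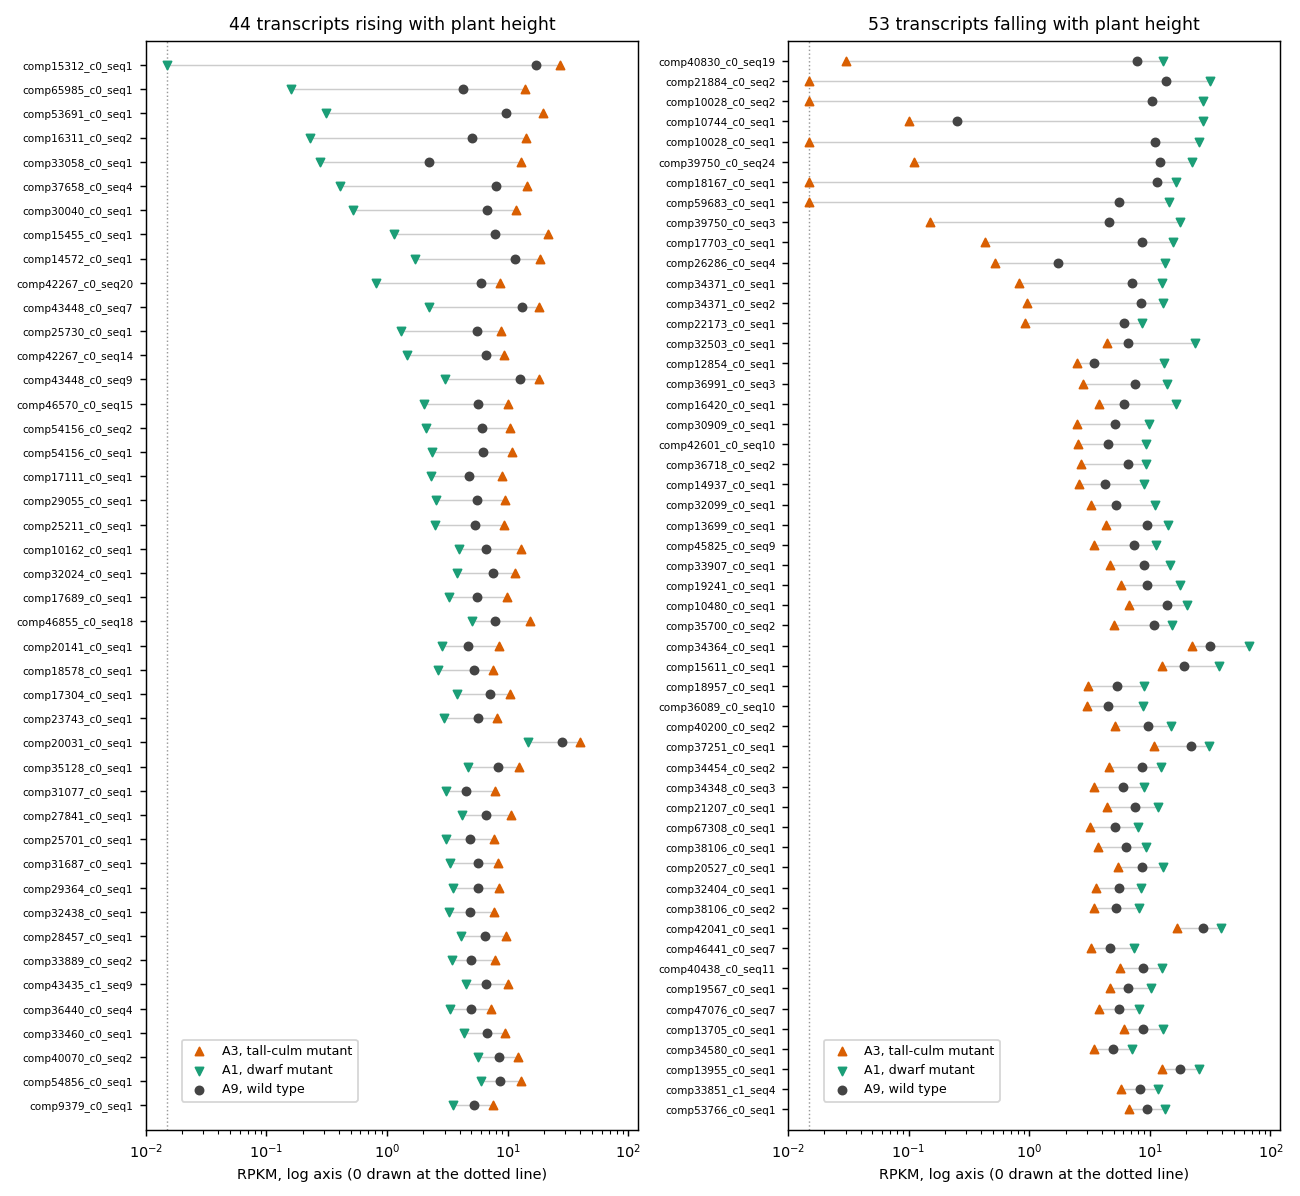
RPKM of each rising (left) and falling (right) transcript in A3 (orange), A1 (green) and A9 (grey) on a log axis, sorted by the ratio of A3 to A1, with 0 drawn at the dotted line. A few transcripts at the top reach 0.5 RPKM or less in the lowest line, 6 in A1 on the left and 10 in A3 on the right, while the others form a narrower staircase.

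The 4 most abundant falling transcripts, comp34364_c0_seq1, comp42041_c0_seq1, comp15611_c0_seq1 and comp37251_c0_seq1, were graded. The first had 22.2 RPKM in A3 and 66.3 in A1, against 31.6 in A9. Its partner comp34364_c0_seq2 did not share the order, with 2.32 in A3 and 22.2 in A1, against 2.03 in A9, and was high in A1 alone. For comp42041_c0_seq1, the only transcript of its component, the values were 16.9 in A3 and 38.9 in A1, against 27.6 in A9. The sole transcript comp15611_c0_seq1 had 12.7 in A3 and 37.5 in A1, against 19.3 in A9. The fifth in abundance, comp13955_c0_seq1, also alone, had 12.6 in A3 and 25.6 in A1, against 17.8 in A9. In the sole transcripts A3 and A1 stood on opposite sides of A9 by comparable factors.

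The order of comp37251_c0_seq1 did not hold for its component. This transcript had 10.8 RPKM in A3 and 30.7 in A1, against 21.9 in A9, but its partner comp37251_c0_seq2 had 23.7 in A3 and 22.0 in A1, against 32.3 in A9. Summed, they had 34.5 in A3 and 52.7 in A1, against 54.2 in A9, which puts A9 at the top.

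Among falling transcripts with 1 RPKM or more in all lines, the widest spread was in comp32503_c0_seq1, with 4.42 RPKM in A3 and 23.6 in A1, against 6.62 in A9. Close behind, comp12854_c0_seq1 had 2.47 in A3 and 13.1 in A1, against 3.47 in A9. These lean to the dwarf side, since A1 was 3.57-fold and 3.76-fold above A9. By contrast comp36991_c0_seq3 had 2.80 in A3 and 13.9 in A1, against 7.50 in A9, with the larger step on the tall side. The sole transcript comp16420_c0_seq1 had 3.80 in A3 and 16.5 in A1, against 6.07 in A9, with the larger step on the dwarf side.

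Narrower falling spreads followed. Among them comp30909_c0_seq1 had 2.48 RPKM in A3 and 9.74 in A1, against 5.17 in A9. For comp14937_c0_seq1, the only transcript of its component, the values were 2.59 in A3 and 8.97 in A1, against 4.22 in A9. Another sole transcript, comp13699_c0_seq1, had 4.35 in A3 and 14.2 in A1, against 9.42 in A9. In each of these both steps contributed to the spread. Of 2 others from larger components, comp36718_c0_seq2 had 2.68 in A3 and 9.31 in A1, against 6.60 in A9, and comp42601_c0_seq10 had 2.52 in A3 and 9.22 in A1, against 4.51 in A9. Their components, of 6 and 14 transcripts, did not stand in the height order, with sums of 41.0 and 67.8 in A3 and 46.6 and 73.4 in A1, against 36.5 and 74.0 in A9.

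Near-absence in the tall mutant was seen in 10 falling transcripts, 5 of them listed at 0 in A3. Both transcripts of comp10028_c0 were listed at 0 in A3 and had 25.7 and 27.8 RPKM in A1, against 11.1 and 10.4 in A9. This was the clearest whole-component case, as nothing of the component was listed in A3. The sole transcript comp18167_c0_seq1 was listed at 0 in A3 and had 16.3 in A1, against 11.4 in A9. For comp59683_c0_seq1, also alone, A3 was listed at 0 and A1 had 14.5, against 5.50 in A9.

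The fifth transcript listed at 0 in A3 was comp21884_c0_seq2, with 31.7 RPKM in A1, against 13.7 in A9. Its less abundant partner comp21884_c0_seq1 kept the order, with 0.92 in A3 and 3.07 in A1, against 2.01 in A9. In comp34371_c0 both transcripts were low in the tall line, at 0.82 and 0.95 in A3 and 12.6 and 12.8 in A1, against 7.07 and 8.46 in A9. The 3 transcripts of comp22173_c0 were also low together, at 0.92, 1.65 and 1.58 in A3 and 8.62, 10.1 and 7.51 in A1, against 6.07, 9.06 and 6.12 in A9. Of these only the first passed both steps.

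Not every form of a component was low together. In comp17703_c0, comp17703_c0_seq1 had 0.43 RPKM in A3 and 15.4 in A1, against 8.61 in A9, while comp17703_c0_seq4 had 6.05 in A3 and 5.23 in A1, against 3.45 in A9. A different shape was that of comp10744_c0_seq1, with 0.10 in A3 and 27.6 in A1, against 0.25 in A9. It met the rule although it was high only in the dwarf and near 0 in both other lines. Similarly comp26286_c0_seq4 had 0.52 in A3 and 13.5 in A1, against 1.74 in A9. Among all transcripts 16 (0.0509%) were below 0.5 RPKM in A3 and at 1 RPKM or more in A1 and A9, and A1 was at least 1.4-fold above A9 in 9 of them, at least 1.4-fold below in 3 and within 1.4-fold in 4.

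Many of the 97 were the only transcript of their component, so their values do not depend on how reads were split between forms of that component. This held for 23 of the 44 rising (52.3%) and 22 of the 53 falling transcripts (41.5%), against 28.5% of all transcripts with a mean of 5 RPKM or more. The other 21 rising and 31 falling transcripts had partners. Among these, the sum of the component passed both steps for 7 rising and 13 falling transcripts. The sum stood in the same order without passing both steps for 10 and 6, and in another order for 4 and 12. The difference between the mutants was smaller in the sums. Its median was 4.58-fold for the rising transcripts and 2.05-fold for their components, and 3.42-fold for the falling transcripts and 2.32-fold for theirs. The rule chose the members for large steps in their own values, so a smaller difference in the sums was favoured in advance.

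Component size went with this. In components of 2 transcripts the sum passed both steps for 7 of 12 rising and 10 of 12 falling transcripts. In components of 10 or more it did so for 0 of 7 and 0 of 11. Each sum contains the member itself, usually a smaller part of a larger component, so this difference was partly built in. With the member left out, the other transcripts summed to the height order, by any step, for 8 of 12 and 8 of 12 in components of 2. In components of 10 or more they did so for 3 of 7 and 3 of 11. Components with 2 members were counted for each, and there the other transcripts still held a member chosen by the same rule. In comp54156_c0 (rising) and in comp10028_c0 and comp34371_c0 (falling) it was the only partner, so its order was fixed in advance. The larger ones were comp42267_c0, comp43448_c0, comp38106_c0 and comp39750_c0. Over all transcripts 12.8% and 10.6% stood in these orders by any step, but as single transcripts, not as partners of a member. A component of 10 or more was comp42267_c0, whose 37 transcripts summed to 191.6 RPKM in A3 and 123.5 in A1, against 112.2 in A9. Within it, comp42267_c0_seq14 had 9.33 in A3 and 1.47 in A1, against 6.62 in A9, and comp42267_c0_seq20 had 8.70 in A3 and 0.81 in A1, against 6.04 in A9.

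On the falling side, comp39750_c0, with 30 transcripts, summed to 222.8 RPKM in A3 and 258.6 in A1, against 184.9 in A9. Its transcript comp39750_c0_seq24 had 0.11 in A3 and 22.4 in A1, against 12.1 in A9. Another of its transcripts, comp39750_c0_seq3, had 0.15 in A3 and 17.7 in A1, against 4.60 in A9. In comp40830_c0, with 27 transcripts and sums of 139.0 in A3 and 194.5 in A1, against 107.0 in A9, comp40830_c0_seq19 had 0.03 in A3 and 12.9 in A1, against 7.84 in A9. In these components 1 or 2 assembled forms were nearly missing from the tall line while the component as a whole was not.

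A large component could also follow the order as a whole. The 11 transcripts of comp43448_c0 summed to 72.4 RPKM in A3 and 13.4 in A1, against 56.1 in A9. Of them comp43448_c0_seq7 had 18.3 in A3 and 2.21 in A1, against 13.0 in A9, and comp43448_c0_seq9 had 18.1 in A3 and 3.02 in A1, against 12.7 in A9. The component was thus 5.4-fold higher in A3 than in A1, with most of the difference between A1 and A9. For falling transcripts, the 13 transcripts of comp38106_c0 summed to 39.8 in A3 and 92.4 in A1, against 67.7 in A9.

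**Figure D4:**
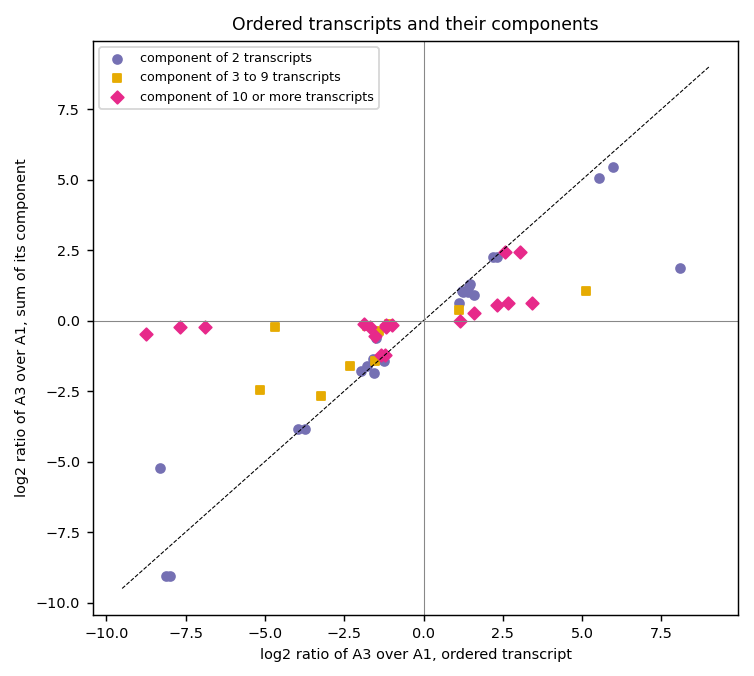
Log2 ratio of A3 over A1 for the 52 ordered transcripts that have partners (horizontal axis) and for the sum of their component (vertical axis), coloured by the number of transcripts in the component, with 0 set to 0.1 and a dashed line where both are equal. Points of components of 2 lie mostly near the line, while most points of components of 10 or more lie near 0 on the vertical axis.

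The threshold cut through a continuous range of values. Just inside it, the rising transcript comp33460_c0_seq1 had 9.45 RPKM in A3 and 4.34 in A1, against 6.73 in A9, and just outside it comp37658_c0_seq2 had 8.53 in A3 and 4.33 in A1, against 6.11 in A9. On the falling side comp53766_c0_seq1, just inside, had 6.77 in A3 and 13.3 in A1, against 9.52 in A9. Just outside, comp14711_c0_seq1 had 5 in A3 and 11.6 in A1, against 8.26 in A9. In each pair the smaller of the steps was nearly the same, while the larger step could differ.

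Read depth limits how far single steps can be read. With the inferred depths, 7 RPKM against 5 RPKM is a ratio whose 95% counting interval runs from 0.751 to 2.46 for a transcript of 300 bases, from 1.03 to 1.93 for 1000 bases and from 1.17 to 1.67 for 3000 bases. The lengths of the 97 transcripts were not given in the sources used here. If all were 1000 bases long, the counting intervals of both steps would lie clear of 1 in 42 of 44 rising and 48 of 53 falling transcripts, and at 300 bases in 14 and 17. These intervals treat each inferred read as an independent count. The study sequenced paired ends, so if both mates of a pair were counted, the intervals are too narrow and these counts may be too high. The intervals cover counting error only, and take in neither the difference between plants nor that between libraries. The rule chose members for large steps in these same values, so intervals clear of 1 were favoured in advance and lend no support.

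The only transcripts that came with any functional annotation, and many of them without one, were those the study listed as predicted or sequenced-cleavage targets of small RNAs. There were 512 of them in these data, of which 201 averaged 5 RPKM or more, and 0 were rising or falling. With 0.14% and 0.169% of all transcripts in the height orders, a list of this size says nothing about its members from that 0. Their median log2 ratio was -0.06 for A3 over A9 and -0.11 for A1 over A9, with 24 standing as A3 over A9 over A1 and 21 as A1 over A9 over A3 by any size of step, where 12.8% and 10.6% of all transcripts did. No component of the 97 held a listed target either.

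By role, the hormone list, whose expressed transcripts include annotations to auxin, brassinosteroid and abscisic acid, had 4 of 11 transcripts at 5 RPKM or more and 0 in either height order. This and the lists below are too short to be read against the 12.8% and 10.6% of all transcripts in those orders by any step, and are given for their values. One of them, comp44609_c0_seq3, annotated as transport inhibitor response 1, an auxin receptor, had 20.6 RPKM in A3 and 16.7 in A1, against 24.8 in A9. The lists were picked by words in the annotations, so a hormone gene worded otherwise was left out. An example is comp33348_c0_seq1, annotated as IAA-amino acid hydrolase, with 2.61 RPKM in A3 and 4.65 in A1, against 9.19 in A9. The cell wall list had 5 of 7, with 1 in the rising order by any step, a cellulose synthase A transcript. This transcript, comp43043_c0_seq2, whose product makes wall cellulose, had 25.2 in A3 and 15.5 in A1, against 15.6 in A9. Its step between A1 and A9 was thus nearly nil.

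The cell division list had 9 of 16 transcripts at 5 RPKM or more, 1 standing as A3 over A9 over A1 and 2 in the reverse order without passing both steps. The smaller step was only 1.06-fold in the first and 1.01-fold in each of the 2 others. In another of the 9, comp34310_c0_seq2, annotated as tubulin beta, a subunit of microtubules, both mutants were below the wild type. Its values were 40.5 RPKM in A3 and 32.6 in A1, against 53.2 in A9. It was not typical of the 9, whose median log2 ratio was 0.08 for A3 over A9 and 0.21 for A1 over A9. The MYB factors had 1 of 6, the AP2 factors 2 of 5 and the HD-ZIP factors 2 of 2. Among them 1 transcript of the AP2 list, annotated as EREBP-like factor, and 1 HD-ZIP transcript stood as A1 over A9 over A3. Their smaller steps were only 1.04-fold and 1.01-fold. The listed transcript nearest to the rising rule was comp27950_c0_seq1, annotated as TFIIH subunit 4, part of a general transcription and DNA repair factor, with 9.42 RPKM in A3 and 4.22 in A1, against 5.56 in A9. Its smaller step was 1.32-fold. Nearest to the falling rule was comp31806_c0_seq2, with no function given, at 3.39 in A3 and 7.18 in A1, against 4.52 in A9.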

How the data were processed

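The authors deposited 1 table of RPKM per assembled transcript for each line, made from mRNA reads of stem apexes that were assembled with Trinity. The read mapper is not given in the sources used here. RPKM is scaled to library size and transcript length and is rounded to 2 decimals, so no read counts were at hand for a test. The counting intervals use read numbers inferred from RPKM at assumed lengths. The 3 tables were joined by transcript name, and no column of another sample was present. A value of 0 was replaced by 0.1 for ratios, and components were taken as the transcript name without its sequence number.

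The transcripts named are the 8 with the largest ratio between A3 and A1 among those at 1 RPKM or more in each line, the 5 with the highest mean, the 5 with the largest ratio among single-transcript components, the 2 components with most members, the 3 with the most even steps among those with a ratio of 4 or more between A3 and A1, and those next to the threshold, in each direction. Partners in their components, the near-missing transcripts (below 0.5 RPKM) and the size classes were chosen after their values were seen. The members and lists were chosen with earlier results of these data known. The functions come from the study's own list of small RNA targets, and the lists by role were picked from it by words in the annotations. Depth was inferred from whole multiples of 1 RPKM step at listed lengths, where 90.6% to 94.9% of low values were whole within 0.1, and counting intervals have a 95% level. Tables were handled in pandas 2.3.3 with numpy 2.4.6 under Python 3.11.15, intervals came from scipy 1.17.1, and plots from matplotlib 3.10.9.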

Additional observations from a re-analysis of the deposited data

How the results depend on the processing

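With 1 library per line, no replicate could be left out. No paired analysis was possible because each line has a single library. Counts of rising and falling transcripts (44 and 53) moved most with the minimum mean, to 3438 and 3383 with none, 266 and 321 at 2 RPKM and 6 and 13 at 10 RPKM. They moved with the step to 267 and 270 at 1.2-fold and to 5 and 7 at 2-fold. Components of a single transcript held 23 and 22. Adding 1 to every RPKM before the ratios gave 30 and 33. Counts stayed within 1.5-fold with a smaller value in place of 0 (44 and 53), median-ratio scaling (43 and 63), upper-quartile scaling (41 and 47), 1 RPKM or more in every library (36 and 39) and component sums (38 and 43). The rising median log2 ratio of A1 over A9 (-0.95) was -0.79 with 1 added and -0.73 over component sums, and the falling median of A3 over A9 (-0.82) was -0.66 and -0.68. With component sums 6 of 72 ratios of named transcripts turned sign: A3 over A9 became 0.29 for comp26286_c0_seq4 and 0.17 for comp36718_c0_seq2, and A1 over A9 became -0.041 for comp37251_c0_seq1, -0.011 for comp42601_c0_seq10, and 0.14 for both comp42267_c0_seq14 and comp42267_c0_seq20. Their construction shows why, as the partners' reads are added. Another 24 of the 72 moved by more than 0.1 over component sums, and 37 moved with 1 added, for example comp15312_c0_seq1 (A1 over A9 -7.43, then -1.24 over the sum and -4.19 with 1 added). Neither scaling turned or moved any of the 72. This was fixed in advance, as each scaling multiplies a whole library by a single factor too small to shift a ratio by 0.1.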

Other observations

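Some components reached the minimum of 5 RPKM in the height order only when their transcripts were summed. Of the component sums with both steps of 1.4-fold or more, 9 rising and 10 falling ones held none of the 97 transcripts, and no transcript of theirs averaged 5 RPKM. In 8 of the 9 and 9 of the 10, at least 1 transcript made both steps by itself at a lower mean. These components were picked because their sums made both steps, so this was partly built in. The widest was comp27763_c1, whose 4 transcripts each made both steps and summed to 29.9 RPKM in A3 and 0.05 in A1, against 12.2 in A9. It was therefore nearly missing from the dwarf as a whole, like comp16311_c0 and comp33058_c0. Among the falling ones, comp25370_c0 summed to 1.31 RPKM in A3 and 9.90 in A1, against 6.74 in A9, over 2 transcripts. The most abundant was comp44104_c0, with 12 transcripts and sums of 16.9 in A3 and 48.4 in A1, against 33.4 in A9. These sums have no replicate check.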
